A study of Nasonia vitripennis with 70 samples.

Results

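Abdomens of diploid and haploid males of the parasitoid wasp Nasonia vitripennis were compared at generation F5 of the WGDL line. The comparison holds 9 of the 70 libraries of the series, chosen by their column labels: 4 diploid libraries (C47, C48, C49 and C50) and 5 haploid libraries (C56, C57, C58, C59 and C60). A diploid abdomen library labelled C46 was left out because its measured transcripts were those of heads, as shown next. Both groups carry the WGDL background, a strain whose genome was duplicated with colchicine, and both were taken 1 day after emergence as poly-A RNA of whole abdomens. The series also holds 8 male abdomen libraries of F15 (4 diploid and 4 haploid), 10 male head libraries of F5 (5 diploid and 5 haploid) and females of F2 and F14, which are triploid or diploid. Replicates are told apart by library code alone and the labels do not state the number of animals behind each. Every p value rests on a spread between libraries, estimated over all groups of a fit and not from the compared groups alone. That spread may be technical.

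In Nasonia, as in other Hymenoptera, fertilised eggs normally become diploid females and unfertilised eggs become haploid males. Sex is set by splicing of transformer (Tra) and doublesex (Dsx), with transformer mRNA supplied by the mother, and not by heterozygosity at a sex locus, and diploid males of Nasonia are known to be fertile. An adult male abdomen holds fat body, gut, Malpighian tubules, testes, accessory glands, body wall and muscle. Several of these organs express detoxification enzymes such as cytochrome P450s, glutathione S-transferases and epoxide hydrolases. In whole abdomens, fewer cells of a type and less RNA per cell cannot be told apart.

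The tissue label held for the 9 libraries and not for C46. In libraries that the comparison does not use, 35 genes were at least 10-fold higher in every F15 male head than in any F15 male abdomen, with at least 20 CPM (counts scaled to a total of 1000000) in every head. These head genes took 0.00634%, 0.00877%, 0.00794% and 0.0131% of counts in C47, C48, C49 and C50, against 0.0111% to 0.0192% in the 5 haploid libraries. They took 2.59% in C46, within the 2.55% to 6.6% of F5 male heads. Lop1, a long-wavelength opsin of the eye, stood at 3090 CPM of total counts in C46 and at 1.52 CPM or less in each of the other 9. Conversely, 33 genes that marked F15 male abdomens against heads and females took 1.67% to 2.96% of counts in the 4 diploid libraries and 2.01% to 2.69% in the 5 haploid libraries, but 0.0038% in C46. A set of 390 genes that marked abdomens of diploid females against F15 male abdomens took 0.149% to 0.238% in diploid and 0.215% to 0.244% in haploid abdomens, with 0 genes higher and 1 lower by the test used below. Library totals, in units of 1000000 counts, were 18.6 to 24.6 in diploid and 17.6 to 25.1 in haploid abdomens.

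**Figure D1:**
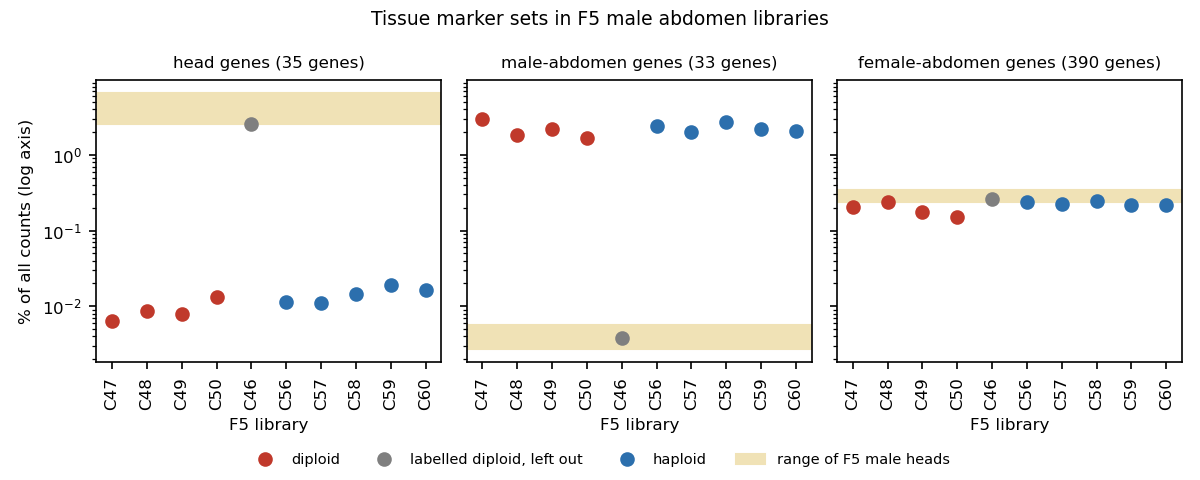
Share of all counts (%, log axis) taken by 35 head, 33 male-abdomen and 390 female-abdomen genes in each F5 male abdomen library (diploid red, C46 grey, haploid blue), with the range of F5 male heads shaded. C46 lies with the heads in the first and second panels, at 2.59% and 0.0038%, and the other 9 libraries lie with each other.

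Between diploid and haploid F5 abdomens, 39 of 12291 genes tested (0.317%) passed edgeR's quasi-likelihood test at an adjusted p below 0.05. In diploid abdomens 33 were higher (0.268% of genes tested) and 6 were lower (0.0488%). An unadjusted p below 0.05 was reached by 1524 genes (12.4%), 808 of them higher (6.57%) and 716 lower (5.83%). The 33 higher genes had a median log2 fold change of 1.18 (0.55 to 5.21), with 20 of them at least 2-fold higher, against a median of -0.04 over all genes tested. The 6 lower genes had a median of -1.35 (-2.67 to -0.71). Only 4 of the 39 have a gene symbol that is not a LOC number, and these were Ssr1, Apip, GstT1 and Cbp, all higher in diploid abdomens.

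The calls rest on a spread estimated over all 34 male and female abdomen libraries. In a fit of the 9 compared libraries alone edgeR called 0 genes (lowest adjusted p 0.329, 1237 genes at an unadjusted p below 0.05), and in a fit of male abdomens alone 0 higher and 1 lower, while DESeq2 on the same 34 libraries called 211 higher and 78 lower. The split of calls turned with limma on log2(TPM + 1), which changes both the values and the test: it called 4 higher and 86 lower genes, with a median over all genes of -0.17. RLE size factors in place of TMM, in the same edgeR test, gave 45 higher and 6 lower genes. With C46 put back, 31 genes were called higher and 16 lower, 13 of the 39 among them. All 39 genes kept their direction in each of these fits other than that of the compared libraries alone, where 38 of them were tested and these 38 kept it.

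Libraries of the 2 groups did not overlap for 11 of the 33 higher and 5 of the 6 lower genes, where 1.29% of all genes tested had every diploid library above every haploid one and 1.66% had every diploid library below. Ssr1 is the alpha subunit of the translocon-associated protein complex, which assists the entry of secreted and membrane proteins into the endoplasmic reticulum. Ssr1 had 85.7, 91.6, 66.6 and 116 CPM in diploid C47, C48, C49 and C50, against 57.4, 38.7, 39.6, 56.5 and 41.9 CPM in haploid C56 to C60. All 4 diploid libraries lay above the highest haploid library. Ssr1 rose by a log2 fold change of 0.94 (SE 0.18, adjusted p = 0.0242), a call that was lost without C50 (0.80, adjusted p = 0.0698), C57 (0.88, 0.0534), C58 (0.89, 0.0971) or C60 (0.91, 0.0567).

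Among genes known only by a LOC number, LOC100680350 had the lowest adjusted p. It had 753, 239.9, 359 and 498 CPM in the diploid libraries, against 186, 135, 166, 163 and 154 CPM in the haploid libraries. C47 was the highest and C48 the lowest diploid library, and the groups did not overlap. The log2 fold change was 1.53 (SE 0.20, adjusted p = 0.000339), and it passed in each of the 9 leave-one-out fits. LOC100115407, with 79.1, 58.5, 66.2 and 115 CPM in diploid and 30.2 to 47.7 CPM in haploid libraries, rose by 0.96 (SE 0.21, adjusted p = 0.0352). That call was lost without any one of C47, C50, C57, C58, C59 and C60 (adjusted p 0.0597 to 0.149).

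Of the lower genes, LOC100679699 had 1.34, 1.49, 4.37 and 1.94 CPM in diploid abdomens, against 11.5, 16.5, 12.02, 16.1 and 16.6 CPM in haploid abdomens. Each diploid library was below 5 CPM and each haploid library was above 10 CPM. It fell by 2.67 on the log2 scale (SE 0.44, adjusted p = 0.00737), and of all alternative fits run only that of the 9 libraries alone lost it (adjusted p 0.329). LOC116417567 had 58.7, 78.5, 85.3 and 48.4 CPM in diploid libraries, against 86.7, 94.1, 161, 170.5 and 179 CPM in haploid libraries. The haploid libraries themselves parted into a lower pair, C56 and C57, and 3 higher ones, so the gap between C49 and C56 was narrow. It fell by 1.03 (SE 0.21, adjusted p = 0.0245) and lost its call without any one of C47, C50, C58, C59 and C60 (adjusted p 0.0643 to 0.0971).

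**Figure D2:**
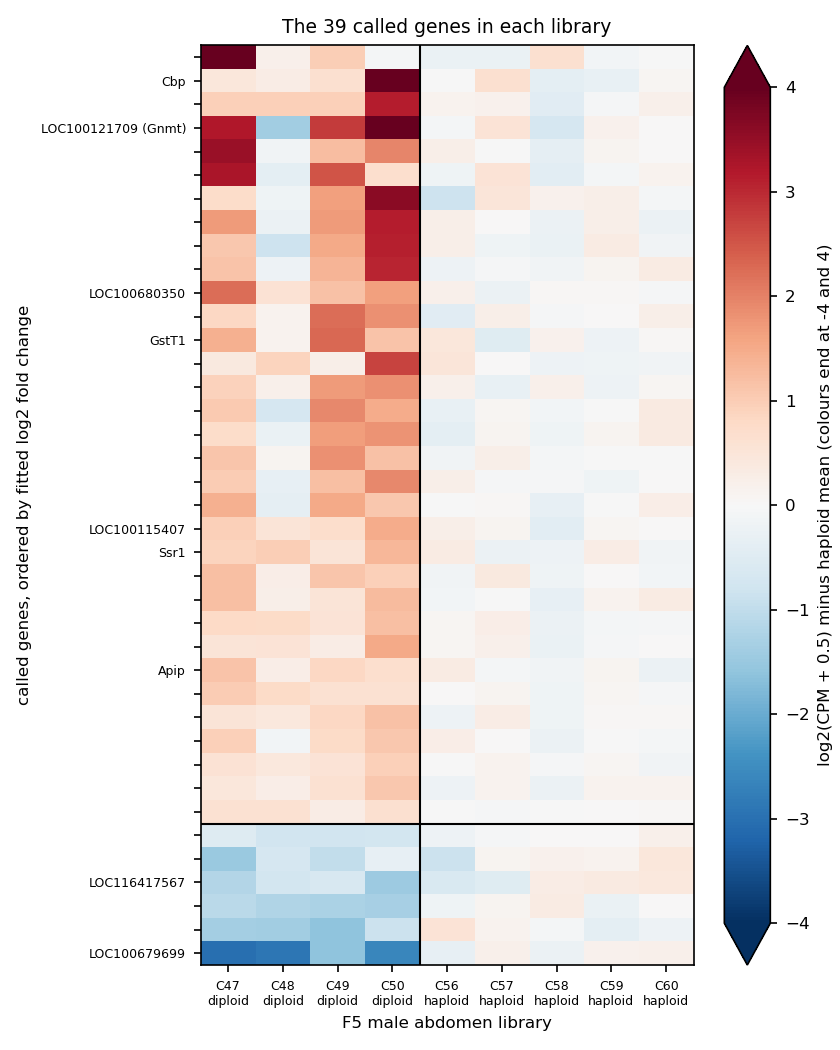
Each row is 1 of the 39 called genes and each column an F5 library, coloured by log2(CPM + 0.5) minus the mean of the 5 haploid libraries (red higher, blue lower). The 33 higher genes are above the line and the 6 lower genes below it; C48 is the palest diploid column, and C50 holds the highest diploid value for 21 of the 33.

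The diploid libraries were not alike in the called genes. C48 had the lowest diploid level for 26 of the 33 higher genes and did not exceed the highest haploid library for 21 of them, whereas this held for 2 genes each in C47 and C49 and for 1 in C50. C50 had the highest diploid level for 21 of the 33, C47 for 7 and C49 for 5. Leaving out C48 gave 259 higher and 133 lower calls, all 39 genes among them, and leaving out C50 gave 20 higher and 7 lower calls, with 11 of the 39 kept. Without C47, 13 higher and 2 lower genes were called, and without C49, 59 and 18. Each haploid library mattered as well, with 1 higher and 1 lower call left without C58 or C60, 3 and 4 without C59, 6 and 3 without C57, and 31 and 22 without C56.

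Across the transcriptome, too, the F5 diploid libraries varied more among themselves. Over 9004 genes with a mean of at least 5 CPM, the median SD of log2 CPM was 0.453 in F5 diploid abdomens, against 0.264 in F5 haploid abdomens, and at F15 it was 0.246 in diploid and 0.351 in haploid abdomens. The SD was larger in F5 diploid than in F5 haploid abdomens for 7141 of the 9004 genes (79.3%). The haploid group held a distant library too. C56 was at least 2-fold from the median of the other haploid libraries for 1129 of these genes, against 165 to 584 for C57 to C60. Diploid C48 was that far from the haploid median for 698. Across genes, which are not independent replicates, the correlation of log2 CPM was 0.825 to 0.923 between diploid libraries (6 pairs), 0.897 to 0.986 between haploid libraries (10 pairs) and 0.813 to 0.953 across the groups (20 pairs).

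Of the glutathione S-transferases, cytochrome P450s and carboxylesterases listed, GstT1 alone passed the edgeR test. GstT1, a theta-class glutathione S-transferase, had 99.04, 40.6, 179 and 80.8 CPM in C47, C48, C49 and C50, against 50.2, 26.2, 41.2, 32 and 37.4 CPM in the haploid libraries. The level in C48 lay within the haploid range, and the other 3 diploid libraries lay above it. GstT1 rose by 1.42 (SE 0.32, adjusted p = 0.0452), and the call was lost without any one of C47, C49, C50, C57, C58, C59 and C60 (adjusted p 0.0662 to 0.169). Of 16 glutathione S-transferases tested, 1 was called higher and 0 lower by edgeR, and 6 had an unadjusted p below 0.05 on the higher side and 0 on the lower side. Over all genes tested 0.268% were called higher and 6.57% had an unadjusted p below 0.05 on the higher side. The list's median log2 fold change was 0.16. Without C48, 4 of the 16 were called higher, and with limma on log2(TPM + 0.1) the list median was -0.02.

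In GST-mic1 and GstT2, the members of this list with the next lowest p, C48 was again the lowest diploid library. GST-mic1, a microsomal glutathione S-transferase, had 1545, 630.1, 2125 and 3183 CPM in diploid libraries, against 353, 1156, 621, 979 and 1038 CPM in haploid libraries (log2 fold change 1.17, SE 0.30, adjusted p = 0.0794). GstT2, also of the theta class, had 1638, 877, 3711 and 3799 CPM in diploid libraries, against 558, 1466, 854, 1288 and 1493 CPM in haploid libraries (1.15, SE 0.36, adjusted p = 0.139). In both genes C49 and C50 were far above every haploid library, C47 was less far above and C48 was within the haploid range. GstO1, of the omega class, had 51.4, 34.5, 83.6 and 89.3 CPM in diploid and 41.01 to 53.2 CPM in haploid libraries (0.53, SE 0.21, adjusted p = 0.274).

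Eh1, an epoxide hydrolase that opens reactive epoxides, had 1910, 932, 4117 and 5201 CPM in diploid libraries, against 1142, 1332, 1021, 1265 and 1543 CPM in haploid libraries. The same 3 diploid libraries lay above every haploid one, and C48 lay below them all. Its log2 fold change of 1.27 (SE 0.32) did not pass (adjusted p = 0.0649). Among the alternative fits it passed only without C48 (1.57, adjusted p = 0.00156) and by DESeq2 (1.33, adjusted p = 0.00845). All other alternatives left it uncalled (adjusted p 0.06 to 0.396), with a log2 fold change of 0.88 without C50. Gnmt (LOC100121709 in the count table) encodes glycine N-methyltransferase, which uses S-adenosylmethionine to methylate glycine, and was singled out after its values were seen because it is a called LOC gene with a described name. It had 969, 40.04, 741 and 2115 CPM in diploid libraries, against 99.98, 155, 66.97, 119 and 108 CPM in haploid libraries. C47, C49 and C50 were several times above the haploid libraries and C48 was below them. Gnmt rose by 3.14 (SE 0.66, adjusted p = 0.0303).

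Among 42 cytochrome P450s, the haem enzymes that oxidise toxins, steroids and fatty acids, edgeR called 0; 11 had an unadjusted p below 0.05, all higher, and 30 of the 42 had a fold change above 0, with a median of 0.55. The median was 0.21 without C47 and 0.23 with limma on log2(TPM + 1). Among all 12291 genes tested, 5653 were above 0 and 6.57% had an unadjusted p below 0.05 on the higher side. CYP6AQ4 had the lowest p, with 4843, 1044, 5996 and 5714 CPM in diploid libraries, against 985, 1440, 950.3, 950.3 and 1050 CPM in haploid libraries. C48 again lay among the haploid libraries, and the log2 fold change was 2.03 (SE 0.62, adjusted p = 0.133). CYP4AB23 had 180.5, 73, 240.2 and 154 CPM in diploid and 47.2 to 71.9 CPM in haploid libraries, with every diploid library above every haploid one, and did not pass (1.46, SE 0.53, adjusted p = 0.218). CYP4AB4 likewise did not overlap, at 12.6, 9.88, 9.64 and 21.7 CPM in diploid and 4.996 to 6.75 CPM in haploid libraries (1.21, SE 0.51, adjusted p = 0.304). In CYP6AS31 only C47 stood out, at 165 CPM against 12.7 to 29 CPM in the other diploid libraries and 15.6 to 37.2 CPM in haploid libraries.

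The P450s did not sum to a higher total in every diploid library: the 42 genes together took 29850, 13720, 31370 and 16030 CPM in C47, C48, C49 and C50, against 11040 CPM in C56 and 22030 to 28520 CPM in the other 4 haploid libraries. The 16 glutathione S-transferases summed to 5292, 4162, 8228 and 8463 CPM in diploid libraries and to 2873 to 4619 CPM in haploid libraries. Of 13 carboxylesterases, which hydrolyse esters, edgeR called 0. At an unadjusted p below 0.05 there were 2, both higher, where 6.57% of all genes tested reached it on that side. The list median was 0.50, which was 0.13 without C50 and 0.19 without C47. For CCE-E7 and CCE-A8, C47 stood far above the rest. It had 44.8 CPM of CCE-E7 (0.0964 to 3.89 CPM in the other diploid libraries, 0.401 to 1.02 CPM in haploid libraries) and 211 CPM of CCE-A8 (17.0 to 35.2 CPM in the other diploid and 11.8 to 54.1 CPM in haploid libraries). Neither passed (adjusted p = 0.103 for CCE-E7 and 0.288 for CCE-A8).

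**Figure D3:**
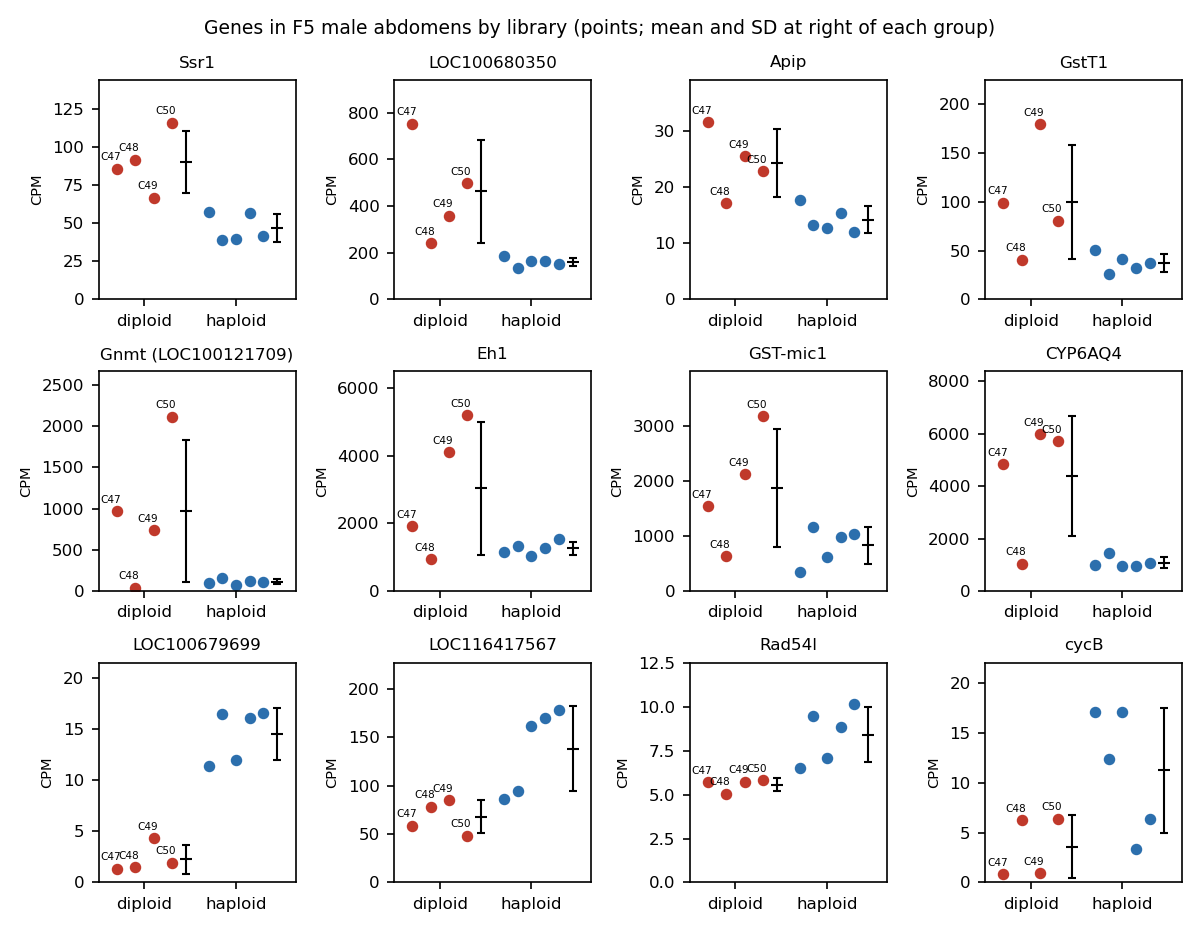
CPM of 12 genes in each F5 library (diploid red and named, haploid blue), with the mean and SD of each group at its right. GstT1, Gnmt, Eh1, GST-mic1 and CYP6AQ4 share a low value in C48, while Ssr1 and LOC100680350 are higher in all 4 diploid libraries and LOC100679699 lower in all 4.

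Apip and Acads, of other metabolic pathways, had smaller fold changes than GstT1. Apip, an enzyme of the methionine salvage pathway, had 31.6, 17.2, 25.6 and 22.9 CPM in diploid libraries, against 17.8, 13.3, 12.7, 15.4 and 12.01 CPM in haploid libraries. C48 lay just below the highest haploid library and the other 3 diploid libraries above it. Apip rose by 0.77 (SE 0.16, adjusted p = 0.0303), a call lost without any one of C47, C57, C58, C59 and C60 (adjusted p 0.0657 to 0.15). Acads, the short-chain acyl-CoA dehydrogenase of fatty acid oxidation, had 117, 88.1, 153 and 273 CPM in diploid and 64.9 to 117 CPM in haploid libraries, and did not pass (0.72, SE 0.24, adjusted p = 0.165). Cbp, the last of the called symbols, rested on 1 library: it had 2552 CPM in C50, 25.7 to 32.5 CPM in the other diploid libraries and 15.6 to 32.5 CPM in haploid libraries. Its fitted log2 fold change of 4.95 (adjusted p = 0.0143) became 0.43 (adjusted p = 0.533) without C50.

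Genes of DNA repair had a lower median, and none passed. Of 17 members tested, 14 had a fold change below 0, 5 had an unadjusted p below 0.05, all lower, and the median was -0.34 (-0.53 without C50), while edgeR called 0. Among all 12291 genes tested, 6574 were below 0, 5.83% had an unadjusted p below 0.05 on the lower side and the median was -0.04. Rad54l and Xrcc2 act in homologous recombination. Rad54l had 5.71, 5.06, 5.76 and 5.83 CPM in C47, C48, C49 and C50, against 6.53, 9.49, 7.12, 8.85 and 10.2 CPM in haploid libraries. Every diploid library lay below every haploid one, and the log2 fold change of -0.60 (SE 0.22) did not pass (adjusted p = 0.219). Xrcc2 had 3.60 to 6.52 CPM in diploid and 6.08 to 9.48 CPM in haploid libraries (-0.61, SE 0.24, adjusted p = 0.268).

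Cox7a1, Cox6c, TctexA and cycB, named from 3 different lists, are described together because C47 and C49 were the lowest of the 9 libraries for each, a choice made after their values were seen. Cox7a1, a subunit of cytochrome c oxidase, had 0.669, 17.1, 2.50 and 17.8 CPM in C47, C48, C49 and C50, against 46.8, 26.4, 28.2, 9.07 and 10.5 CPM in C56 to C60. Cox6c, of the same complex, had 0.308, 2.31, 0.416 and 2.57 CPM in diploid libraries, against 12.8, 10.1, 13.3, 1.80 and 3.38 CPM in haploid libraries. TctexA, a dynein light chain, had 17.0, 77.96, 34.7 and 91.9 CPM in diploid libraries, against 154, 100.1, 109, 45.5 and 50.4 CPM in haploid libraries. In all 3 genes C59 and C60 were the lowest haploid libraries.

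cycB, cyclin B of the cell division cycle, had the same lowest libraries, with 0.823, 6.22, 0.901 and 6.38 CPM in diploid libraries, against 17.0, 12.4, 17.1, 3.33 and 6.32 CPM in haploid libraries. In F5 male heads Cox6c was at 0 CPM, and Cox7a1, TctexA and cycB did not exceed 0.793, 0.298 and 0.437 CPM of total counts. None of the 4 passed in F5 abdomens: the fold changes were -1.35 for Cox7a1 (SE 0.78, adjusted p = 0.496), -2.56 for Cox6c (SE 0.99, 0.274), -0.73 for TctexA (SE 0.44, 0.511) and -1.65 for cycB (SE 0.64, 0.26). Over the 64 oxidative phosphorylation genes the median was 0.01 and edgeR called 0, with 1 at an unadjusted p below 0.05, against 12.4% of all genes tested. The share of male-abdomen genes was 2.96% in C47 and 2.20% in C49. Genes of that set had at least 20 CPM in every F15 male abdomen, and these 4 genes were below that level in F15 diploid libraries. The set therefore cannot track genes of their kind, and the part of tissue composition in these levels was not tested.

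Sex determination genes were uncalled. Dsx had 432, 612, 513 and 416 CPM in diploid libraries, against 467, 502, 558, 615 and 601 CPM in haploid libraries (log2 fold change -0.15, SE 0.45, adjusted p = 0.929). Tra had 30.3 to 52.6 CPM in diploid and 31 to 80.5 CPM in haploid libraries (-0.41, SE 0.30, adjusted p = 0.614). Fru, fruitless, which patterns male courtship circuits in Drosophila, had 23.2 to 95.3 CPM in diploid and 31.1 to 51.1 CPM in haploid libraries (0.34, SE 0.24, adjusted p = 0.596). All 3 overlapped between the groups. These are gene totals and do not resolve the sex-specific splice forms. oskar, a germ plasm determinant in Drosophila, had 0.833 to 1.80 CPM in diploid and 1.15 to 3.27 CPM in haploid libraries (-0.90, SE 0.22, adjusted p = 0.0594), against 514 to 924 CPM of total counts in female abdomens.

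**Figure D4:**
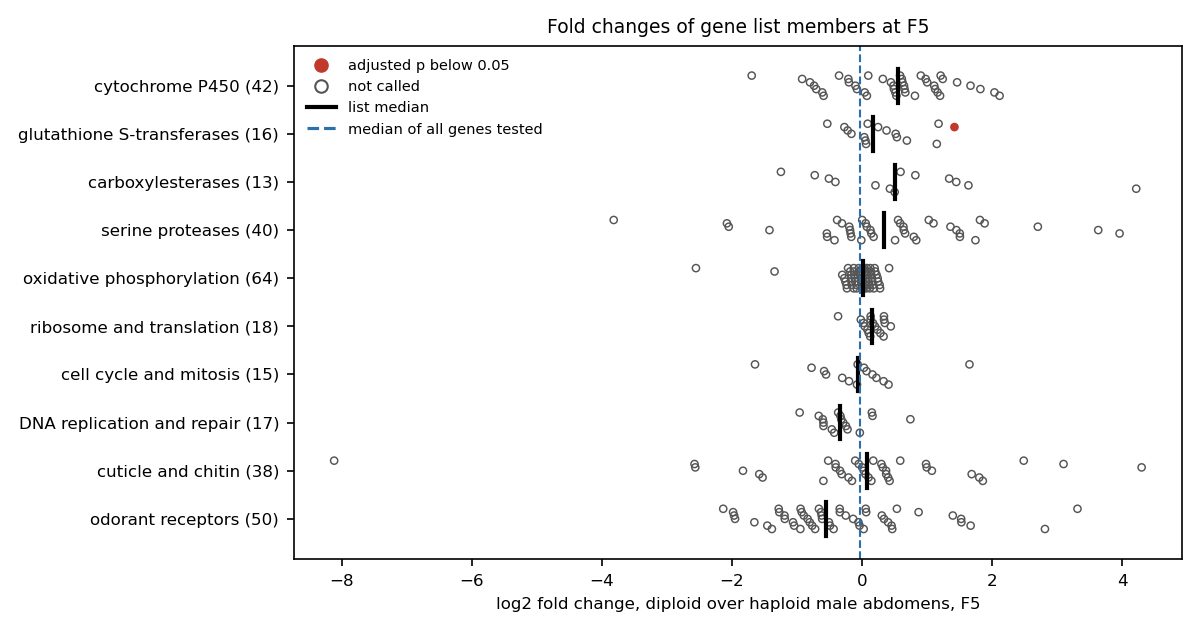
Log2 fold changes (diploid over haploid F5 male abdomens) of the tested members of 10 gene lists, with the number tested in brackets, list medians as black bars and the median of all genes tested (-0.04) as a dashed line. GstT1 is the only filled point, and the medians of P450s (0.55) and DNA replication and repair (-0.34) lie on opposite sides of the line.

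Several lists with wide spreads held no call. Of all genes tested, 6.57% had an unadjusted p below 0.05 on the higher side and 5.83% on the lower side. For 40 serine proteases, edgeR called 0, 6 had an unadjusted p below 0.05, all higher, and the median was 0.34 (-0.07 without C47). Single libraries set the extremes. SP43 had 232 CPM in C47 against 12.8 to 23.1 CPM in the other diploid libraries and 4.497 to 33.9 CPM in haploid libraries. SP122 had 145 CPM in C47 against 0.289 to 3.33 CPM in the other diploid libraries and 0 to 10.8 CPM in haploid libraries. For 38 cuticle and chitin genes edgeR called 0, with 3 at an unadjusted p below 0.05 (1 higher and 2 lower) and a median of 0.07. CPR48, the lowest of them, was at 0 in all 4 diploid libraries and at 0 to 4.45 CPM in haploid ones, so its fitted value of -8.12 depends on the prior count and is no bound. Def1-1, a defensin, had 332.5 CPM in haploid C56 and 0.579 to 1.75 CPM in the other haploid libraries, against 0.0514 to 0.833 CPM in diploid libraries (adjusted p = 0.127). Only 50 of 214 odorant receptors passed the filter on low counts. Their median was -0.56, 4 had an unadjusted p below 0.05 (2 higher and 2 lower) and edgeR called 0.

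At F15, in libraries that share none of the F5 samples, edgeR called 2752 of the same 12291 genes (22.4%), 914 higher (7.44%) and 1838 lower (15%) in diploid abdomens; without the haploid library C87, 557 were called higher. Of the 33 genes higher at F5, 26 had a positive fold change at F15, 21 were called higher there and 0 were called lower. These 21 are 63.6% of the F5 list and 2.3% of the F15 list, against the 7.44% of all genes tested that were called higher at F15. Over all genes tested 41.9% had a positive fold change at F15. The F5 and F15 tests come from the same fit and share its spread for each gene, so their calls are not independent and 7.44% is not a matched share. GstT1 had 171, 160, 148 and 184 CPM in the F15 diploid libraries C96, C97, C98 and C99, against 21.7, 23.4, 38.9 and 36.9 CPM in the haploid libraries C86, C87, C88 and C89. The F15 groups did not overlap, and GstT1 rose by 2.46 (SE 0.36, adjusted p = 2.22e-05).

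Apip had 23.2 to 29 CPM in F15 diploid and 11.1 to 16.0 CPM in F15 haploid abdomens, a rise of 0.85 (SE 0.17, adjusted p = 0.000642). LOC100680350 had 366 to 495 CPM in F15 diploid and 146 to 219 CPM in F15 haploid abdomens, a rise of 1.24 (SE 0.22, adjusted p = 0.00014). Eh1, uncalled at F5, was called higher at F15 (1.91, adjusted p = 0.000185). Of the 16 glutathione S-transferases, 5 were called higher and 2 lower at F15. Over all genes tested 7.44% were called higher and 15% lower there. GST-mic1 (1.69, adjusted p = 0.00039) and GstT2 (1.62, adjusted p = 0.0025) were among the higher ones, and the difference between the F5 and F15 effects was not called for Apip, LOC100680350, Eh1, GstT1, GST-mic1 or GstT2. The 2 lower ones were GstS8 (-2.65, adjusted p = 4.93e-05) and GstS3 (-1.96, adjusted p = 9.94e-05), both uncalled at F5, and their F5 effects were called above those of F15 (by 2.11, adjusted p = 0.023, for GstS8 and by 1.68, adjusted p = 0.0248, for GstS3). Of the 42 P450s, 11 were called higher and 4 lower at F15. The test of the difference between the generations called 1 of the 42, with F5 above F15, where 4.55% of all genes tested were called above. Of the 6 genes lower at F5, 3 were called lower at F15, LOC100679699 among them (-1.25, SE 0.43, adjusted p = 0.0352), and 1 was called higher.

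**Figure D5:**
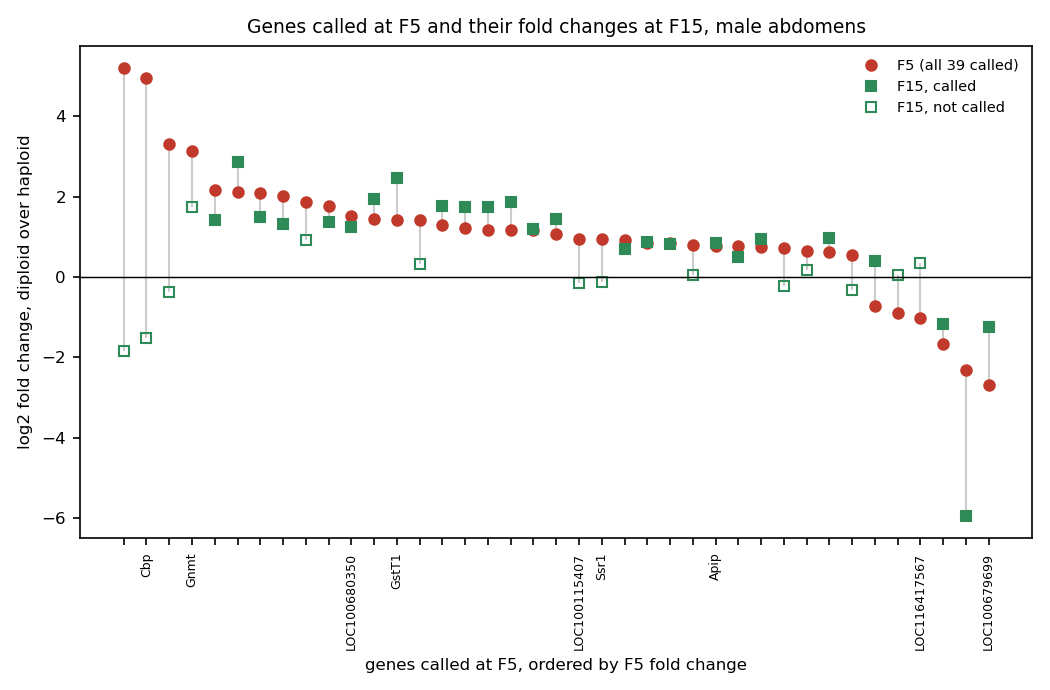
Log2 fold changes (diploid over haploid male abdomens) of the 39 genes called at F5, at F5 (red circles) and at F15 (green squares, filled where called). Of the 33 genes higher at F5, 21 are filled above 0 at F15, whereas Ssr1, LOC100115407 and Cbp are below 0 and not called.

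A direct test of the F5 effect minus the F15 effect called 730 genes (5.94%), 559 (4.55%) with the F5 value above the F15 value and 171 (1.39%) below it. Single libraries of both generations moved these counts: the 559 became 214 to 355 without any one of C48, C50, C59, C60, C86, C87, C96 and C98 and 913 without C89, and the 171 became 67 to 102 without any one of the same libraries other than C50 and 280 without C89. Most were F15 calls, since 672 of the 730 were called at F15 and 11 at F5. The 559 had a median log2 fold change of -0.25 at F5 and -3.51 at F15, and the 171 had medians of -0.25 at F5 and 1.08 at F15. Of the 39 genes called at F5, 7 of the 33 higher and 4 of the 6 lower differed between the generations. Ssr1 was one of them, with 58.5 to 88.6 CPM in F15 diploid and 54.4 to 96.4 CPM in F15 haploid abdomens (-0.12, adjusted p = 0.733), a difference of 1.06 (SE 0.26, adjusted p = 0.018) that was lost without C87 or C98. LOC100115407 differed by 1.10 (SE 0.30, adjusted p = 0.0289), lost without C50, C86, C87 or C98, and LOC116417567 by -1.37, called in each of the 17 leave-one-out fits. In the fit of the compared groups only, none of these 3 differences passed (adjusted p = 0.0807 for Ssr1, 0.116 for LOC100115407 and 0.0636 for LOC116417567).

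The cuticle and chitin list held 10 of the 38 members with an F5 effect called above the F15 effect and 0 below, where 4.55% of all genes tested were called above and 1.39% below. apd-3 had 0.277 to 1.69 CPM in F5 diploid and 0.386 to 1.28 CPM in F5 haploid abdomens (log2 fold change 0.14, adjusted p = 0.988). At F15 it had 0.653 to 2.42 CPM in diploid libraries, against 2530, 27200, 295 and 1.22 CPM in haploid C86, C87, C88 and C89. The fold change of -12.48 at F15 thus rested on 3 haploid libraries, with C89 at the diploid level, and the difference was called in each of the 17 leave-one-out fits. The list summed to 3663 to 4435 CPM in F5 diploid and 2384 to 4216 CPM in F5 haploid abdomens, against 3920 to 5152 CPM in F15 diploid and 4001 to 37240 CPM in F15 haploid abdomens.

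Cox7a1 and TctexA also differed between generations. Cox7a1 had 0 to 1.60 CPM in F15 diploid and 9.14 to 67.6 CPM in F15 haploid abdomens, a fall of 5.83 (adjusted p = 0.000153), and the F5 effect lay 4.48 above it. TctexA had 2.91 to 16.8 CPM in F15 diploid and 29.4 to 122 CPM in F15 haploid abdomens, a fall of 3.23 (adjusted p = 3.42e-05), and the F5 effect lay 2.50 above it. The difference of Cox7a1 was lost without any one of C48, C50, C86, C87, C96 and C98, and that of TctexA without any one of C48, C50, C86, C96 and C98, and neither passed in the fit of the compared groups only (adjusted p = 0.085 and 0.108). Na-pi-t (0.26 at F5 and 2.29 at F15) and Snx16 (0.06 and 1.3), a sorting nexin, had F5 effects called below those of F15 in each of the 17 leave-one-out fits.

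In F5 male heads, 15 of 12385 genes (0.121%) were called, 13 higher (0.105%) and 2 lower (0.0161%) in diploids. None of the 33 genes higher in abdomens was called in heads (edgeR, adjusted p), where only 0.105% of all genes tested were called higher. In heads 24 of the 33 had a positive and 9 a negative fold change, where 6967 of all 12385 genes tested were above 0. LOC100679699, lower in F5 abdomens, fell by 2.98 in heads as well (SE 0.45, adjusted p = 0.00159). The test of the abdomen effect minus the head effect called 1 gene (0.00807%), with 953 (7.69%) at an unadjusted p below 0.05. It was LOC100121961, named here because it was the single call, with 37.1 to 95.7 CPM in diploid and 23.2 to 27.3 CPM in haploid abdomens and an effect 1.76 higher in abdomens (SE 0.31, adjusted p = 0.0486). LOC100121961 did not pass in abdomens themselves (log2 fold change 1.14, SE 0.27, adjusted p = 0.0519). With C46 put back the test against heads called 0 genes. None of the 39 genes called in abdomens was called by edgeR in the test against heads.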

How the data were processed

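The authors deposited a table of RSEM expected counts for 14621 genes and a table of TPM (length-scaled transcript levels) for 14613 genes in 70 libraries, made with the aligner STAR (2.7.11a) and the quantifier RSEM (1.3.1), per the submitters' processing notes. No source used here says which genome build the reads were aligned to; no coordinates or sequences are given. Per the labels' protocols, libraries were made from poly-A RNA with a kit that is not described as stranded, so reads of overlapping antisense genes cannot be told apart. RSEM divides reads among similar sequences, so single P450, glutathione S-transferase and serine protease genes carry that uncertainty.

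Expected counts were rounded (18.2% of values were not whole) and tested with edgeR 4.0.16 under R 4.3.3 (quasi-likelihood F test after TMM scaling and filterByExpr). The main fit held 34 abdomen libraries without C46 (12291 genes, coefficient of biological variation 0.445, 26 residual degrees of freedom), so that all groups share 1 estimate of the spread. Tissue differences came from 35 male libraries (12385 genes, 0.434, 27). Adjusted p values are Benjamini-Hochberg over all genes of a contrast, from edgeR unless another tool is named, and a call is an adjusted p below 0.05. CPM are counts scaled to 1000000 by the TMM-scaled library unless given as CPM of total counts. Alternatives were DESeq2 1.42.0, limma 3.58.1 on log2(TPM + 1) and log2(TPM + 0.1), RLE size factors, no low-count filter, fewer groups in the fit, C46 put back, each library left out, and, added after seeing the data, voom with library weights. The test script was checked on simulated counts. Within F5 diploid and within F5 haploid abdomens, no pair of libraries agreed within sampling noise. Each of the 14621 symbols matched the RefSeq gene table for Nvit_psr_1.1, from which the name Gnmt was taken. Of these, 829 symbols are not LOC numbers, and LOC genes other than Gnmt are described without a role.

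Genes were named by a rule: up to 12 per direction with a symbol, called, at 5 CPM or more and without overlap of libraries; where this gave under 6, those with the lowest p up to 6; at most 2 LOC genes per direction; up to 4 per gene list with the lowest p; Dsx, Tra and Fru; and up to 4 per direction with the largest difference between F5 and F15. Not all genes the rule takes are described. Gene lists come from symbol patterns. The compared libraries, the lists and the rule were chosen with earlier results of these data known.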

Additional observations from a re-analysis of the deposited data

Results flagged for a closer look

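Within the groups of F5 abdomens, 26 of 173 groups of named genes held 1 library far from the others, relative to the range of its group. Genes are not independent replicates, and many were named by their p in these same libraries. The count of 26 is therefore a description and was not set against a chance rate. Among diploid abdomens, C50 stood apart for Cbp (2550 CPM against 25.7 to 32.5 in the other 3 diploid libraries), nAChRb3, a nicotinic acetylcholine receptor subunit (37.3 against 3.47 to 7.23), Mrjpl3 (1640 against 142 to 277) and Mrjpl7 (209 against 61.2 to 77.5), both major royal jelly protein-like, and Gnbp1-2, a Gram-negative binding protein (119 against 50.5 to 59). C47 stood apart for OBP19, an odorant binding protein (61.4 against 1.6 to 2.63), Or119, an odorant receptor (14.7 against 0 to 0.624), SP43 (232 against 12.8 to 23.1), SP122 (145 against 0.289 to 3.33), CYP6AS31 (165 against 12.7 to 29), CCE-E7 (44.8 against 0.0964 to 3.89) and CCE-A8 (211 against 17 to 35.2). C48 stood apart for Rad54l (5.06 against 5.71 to 5.83), Atp5b, a subunit of ATP synthase (998 against 521 to 539), ppo1, a prophenoloxidase (35.5 against 11.8 to 15.2), SP4 (23.4 against 0.139 to 2.01) and Tm1, a tropomyosin (3650 against 1570 to 1670).

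Among haploid abdomens, C56 stood apart for Def1-1 (333 CPM against 0.579 to 1.75 in the other 4 haploid libraries), Chordc1, a co-chaperone of Hsp90 (16.4 against 28 to 30.3), Dctn5, a dynactin subunit (42.8 against 32.5 to 34.9), SP43 (33.9 against 4.5 to 6.56), SP122 (10.8 against 0 to 1.04) and CCE-A8 (54.1 against 11.8 to 17.7). C57 stood apart for CYP6AQ4 (1440 against 950 to 1050), C58 for ppo1 (17.5 against 9.64 to 11.5) and C59 for CPR7, a cuticle protein (5.57 against 0.192 to 1.35). SP43, SP122 and CCE-A8 thus each had 1 high library in both groups, C47 among diploids and C56 among haploids.

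The effect of ploidy differed between F5 and F15 by the edgeR test of the difference for 18 named genes. The F5 log2 fold change lay above that of F15 by 12.62 for apd-3, 11.26 for CPR9, 9.31 for CPR8, 8.38 for apd-1, 6.84 for SP4, 6.47 for Cbp, 4.48 for Cox7a1, 2.50 for TctexA, 1.66 for Atp5b, 1.10 for LOC100115407, 1.06 for Ssr1 and 0.81 for star. It lay below by -2.55 for Mrjpl4, -2.03 for Na-pi-t, -1.37 for LOC116417567, -1.34 for Ctps, -1.24 for Snx16 and -1.16 for oskar. Of these, apd-3, CPR8, Cbp, LOC116417567, Na-pi-t and Snx16 passed in each of the 17 fits that left out 1 library. Cbp rests on C50 at F5, since its difference ranged from 1.95 to 6.87 over those fits. SP4 lost its call without C48 and star without C98. The call held in 15 of the 17 fits for Ssr1, 13 for apd-1 and LOC100115407, 12 for TctexA, 11 for Cox7a1, 10 for oskar, 9 for Atp5b, 8 for CPR9, 7 for Mrjpl4 and 6 for Ctps. In a fit of the compared groups only, apd-3, Na-pi-t, Snx16, SP4 and Mrjpl4 still passed (adjusted p 0.0181 to 0.0477), and the others did not, CPR8 (0.0531), Cbp (0.0532) and LOC116417567 (0.0636) among them. CPR8 and CPR9 stayed at or below 0.463 CPM in each F5 abdomen, against 238, 106, 5.11 and 0.116 CPM of CPR8 in F15 haploid C86, C87, C88 and C89 and 0.145 to 0.719 CPM in F15 diploid abdomens. CPR9 was at 0 in all 5 F5 haploid libraries, so its fitted difference depends on the prior count and is no bound.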

How the results depend on the processing

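Called genes at F5 numbered 33 higher and 6 lower. They numbered 211 higher and 78 lower with DESeq2, 4 and 86 with limma on log2(TPM + 1), 2 and 23 on log2(TPM + 0.1), 0 and 0 in a fit of the compared groups only, 0 and 1 in male abdomens only, 64 and 30 with voom library weights and 31 and 16 with C46 put back; RLE size factors (45 and 6) and no low-count filter (31 and 5) stayed within 1.5 times. Leaving out 1 library gave 1 to 259 higher and 1 to 133 lower. Of the 39 genes, edgeR in the compared groups only called 0, voom 27, limma 8 and 7, and DESeq2 38. The fits differ in the samples that set the spread, in the test or in the scaling, and the cause of each change was not tested.

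Leaving out 1 library at F15 gave 557 to 1104 genes higher and 1390 to 2101 lower. For the F5 effect minus the F15 effect (559 above, 171 below), limma on log2(TPM + 0.1) gave 306 above, the compared groups only 106 above and 58 below, and DESeq2 263 below; leaving out 1 library gave 214 to 913 above and 67 to 280 below. For abdomen minus head (1 above, 0 below by edgeR, 953 at an unadjusted p below 0.05), C46 put back, RLE size factors, no low-count filter, both limma fits and the compared groups only each gave 0 above, DESeq2 gave 10 above and 25 below, and leaving out 1 library gave 0 to 20 above and 0 to 7 below.

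Over all named genes and alternatives at F5, 1914 values stayed on their side of the threshold, 35 newly passed and 60 no longer passed. Most of the 1914 belong to genes that were uncalled and stayed so, and they do not measure how stable the calls were. All 60 losses fell on the few named genes called in the main fit. Without C58 or C60, only 2 of the 39 called genes stayed called. No called gene among those named turned its direction. No paired analysis was possible because the groups share no replicate numbers, only library codes of their own. Groups of 4 and 5 libraries give imprecise SDs, and counts near 0 limit the odorant receptors.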
